A study of Mus musculus with 19 samples.

Results

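The genes followed here serve inhibitory neurotransmission and were measured in hippocampal slices of mice that lack Fmr1 and of their WT littermates. They encode the GABA-A receptor subunits beta1 (Gabrb1), beta2 (Gabrb2), gamma1 (Gabrg1), gamma3 (Gabrg3) and delta (Gabrd), the GABA-B receptor subunits Gabbr1 and Gabbr2, and the scaffold protein gephyrin (Gphn). The 8 were chosen by symbol, and all 8 were among the 14459 genes measured. In Fmr1 KO slices, 5 of the 8 fell in ribosome footprints relative to other genes (10.4% of all genes fell): Gabrb1 by 13.5%, Gabrb2 by 10.1%, Gabrg1 by 16.5%, Gabbr1 by 10.3% and Gabbr2 by 8.42%. Gphn rose by 12.2% (8.15% of all genes rose), and Gabrg3 and Gabrd did not pass the test. In RNA none of the 8 passed, and 4.89% of all genes did. Nor did any of the 8 pass in footprints relative to RNA, where 0.0346% of all genes did. The footprint call of Gabbr2 was lost in 7 of 14 alternative fits.

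The slices came from male Fmr1 KO mice and their WT male littermates at postnatal days 28 to 35, on a C57BL/6 background per the sample labels (C57BL/6N per the series text), and no other allele or agent is named. The product of Fmr1, FMRP, attaches to a large set of neuronal mRNAs, and loss of it underlies fragile X syndrome. The line is a germline knockout, so neurons and glia of the slice lack the protein alike. Each replicate pooled 8 to 10 slices, cut at 400 µm, from 6 to 8 mice, and the spread between libraries is therefore a spread between pools. Slices of both genotypes rested for 3 to 4 h at 30 °C and then received cycloheximide at 100 µg/ml, which holds ribosomes on their mRNAs. The protocol states that CA3 was removed to enrich CA1, while the source label names hippocampal-cortical slices. From each lysate the monosome-protected mRNA fragments (footprints) and the cytoplasmic RNA were sequenced. Of the libraries 14 were used, 3 from KO and 4 from WT slices in either assay, and 5 further labelled samples are not analysed here. Every value below is from 3 KO and 4 WT libraries, and every ± beside a mean is a standard deviation and beside a log2 fold change a standard error.

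GABA-A receptors are pentameric chloride channels that carry fast inhibition. Most contain alpha and beta subunits, with the GABA site between them, and a further subunit that sets the location: gamma subunits go with synaptic receptors, and delta with receptors outside the synapse that answer to ambient GABA, among them those of dentate granule cells. GABA-B receptors are slow G-protein-coupled receptors that work as a heterodimer, in which Gabbr1 binds GABA and Gabbr2 brings the pair to the surface and couples to the G protein. Gephyrin forms the lattice under inhibitory synapses that holds glycine receptors and many GABA-A receptors in place, and in all tissues it also completes the synthesis of the molybdenum cofactor.

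Gabrg1 and Gabrb1, the pair of members with the largest falls in footprints, lie in one cluster of GABA-A subunit genes on mouse chromosome 5, whereas Gphn, the member that rose, lies on chromosome 12. Their promoters are shown to set the starts of the pair that share a direction and a cluster beside that of the member that rose. Each window runs from 250 bases before to 30 bases after a RefSeq start (GRCm38.p6), 5′ to 3′ on the strand of the gene, and capitals mark each CG dinucleotide, which reads the same on both strands. Gabrg1 is on the minus strand (chr5:70842588-70842867), Gabrb1 on the plus strand (the first of its 2 starts, chr5:71657671-71657950) and Gphn on the plus strand (chr12:78226405-78226684). The Gphn window lies inside the span given for that gene below, which begins at 78217325.
Gabrg1: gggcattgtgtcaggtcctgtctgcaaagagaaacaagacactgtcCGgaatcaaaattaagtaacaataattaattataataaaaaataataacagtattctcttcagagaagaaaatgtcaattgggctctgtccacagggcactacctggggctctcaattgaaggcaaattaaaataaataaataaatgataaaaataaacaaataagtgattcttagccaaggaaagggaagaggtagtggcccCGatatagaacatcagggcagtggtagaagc
Gabrb1: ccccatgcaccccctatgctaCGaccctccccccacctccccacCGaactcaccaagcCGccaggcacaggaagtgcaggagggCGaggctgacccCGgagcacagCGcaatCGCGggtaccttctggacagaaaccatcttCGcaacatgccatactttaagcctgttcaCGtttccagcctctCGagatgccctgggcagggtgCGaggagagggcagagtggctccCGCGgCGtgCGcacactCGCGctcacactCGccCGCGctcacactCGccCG
Gphn: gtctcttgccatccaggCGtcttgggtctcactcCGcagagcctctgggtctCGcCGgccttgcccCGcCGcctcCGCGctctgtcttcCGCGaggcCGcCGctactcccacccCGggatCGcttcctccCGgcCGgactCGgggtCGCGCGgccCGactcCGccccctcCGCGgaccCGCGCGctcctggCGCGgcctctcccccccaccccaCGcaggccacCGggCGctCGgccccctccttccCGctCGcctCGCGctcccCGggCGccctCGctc
The Gabrg1 window holds 2 CG, the Gabrb1 window 23 and the Gphn window 40, and the second Gabrb1 start, which is not printed, holds 9 (56.1% of windows held fewer). Over 32851 RefSeq windows of the same length the median was 6, and 15.9% of windows held fewer CG than Gabrg1, 81.6% fewer than the first start of Gabrb1 and 97.3% fewer than Gphn. Gabbr2, whose footprints fell, held 41 CG in its window, about as many as Gphn. Gabbr1 had 18, Gabrg3 had 11 and the 3 starts of Gabrb2 had 11, 9 and 8. Windows of the members that fell thus held 2 to 41 CG and that of the member that rose 40. The part of CG content in the differences was not tested. A window was found for 7 of the 8 genes.

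The knocked-out gene was checked first. Fmr1 had 4.81 ± 0.222 TPM in KO footprints and 44.4 ± 1.53 TPM in WT footprints, and 4.42 ± 0.771 TPM in KO RNA and 17.3 ± 1.46 TPM in WT RNA, where TPM is abundance per transcript length scaled to the library. Its log2 fold change was -3.21 ± 0.06 (SE) in footprints (adjusted p = 9.12e-12, by edgeR's quasi-likelihood test with Benjamini-Hochberg adjustment). In RNA the value was -2.01 ± 0.11 (adjusted p = 9.82e-08). Library totals were 15.57 to 22.71 M estimated counts for footprints and 4.97 to 9.96 M for RNA. No value was at 0, and the lowest value of each library was 0.88 to 1.0 TPM. Among genes with mean counts of 20 to 50 the median variance between footprint libraries over the mean was 0.158 in KO and 0.174 in WT, and in RNA 0.38 in KO and 0.406 in WT, all below the value of 1 that counting alone gives. Within groups, the difference of replicates 1 and 2 from replicates 3 and 4 was nearly absent: the direction that matched it (cosine 0.996 in both assays) held 3.79% of the variance in footprints and 2.1% in RNA, against at least 16.9% and 19.7% for each other direction. The deposited values are therefore smoother than raw counts. No adjustment between libraries is named in the sources used here, the main fits modelled none, and the SD, SE and p-values given here may be too small. Markers of hippocampal cell types were all present, with summed footprints of 319 to 335 TPM in KO and 351 to 358 TPM in WT for 7 CA1 markers, and 853 to 960 TPM in KO and 914 to 943 TPM in WT for 12 dentate granule markers. The 7 CA3 markers summed to 1812.3 to 1992.5 TPM in KO and 2157.0 to 2386.8 TPM in WT, so footprints of CA3 marker genes were present although the protocol removes CA3. Most of that sum and of its difference was Nnat, whose KO libraries averaged 1392.8 ± 83.7 TPM and WT libraries 1723.5 ± 100.0 TPM. Cpne4 (65.0 ± 0.452 TPM in KO and 65.2 ± 1.98 TPM in WT) and Elavl2 (107 ± 2.3 TPM in KO and 107 ± 2.17 TPM in WT) had nearly equal means. Of the 7 CA3 markers 3 passed the test as lower and 0 as higher in KO footprints, with a median log2 fold change of -0.12.

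**Figure D1:**
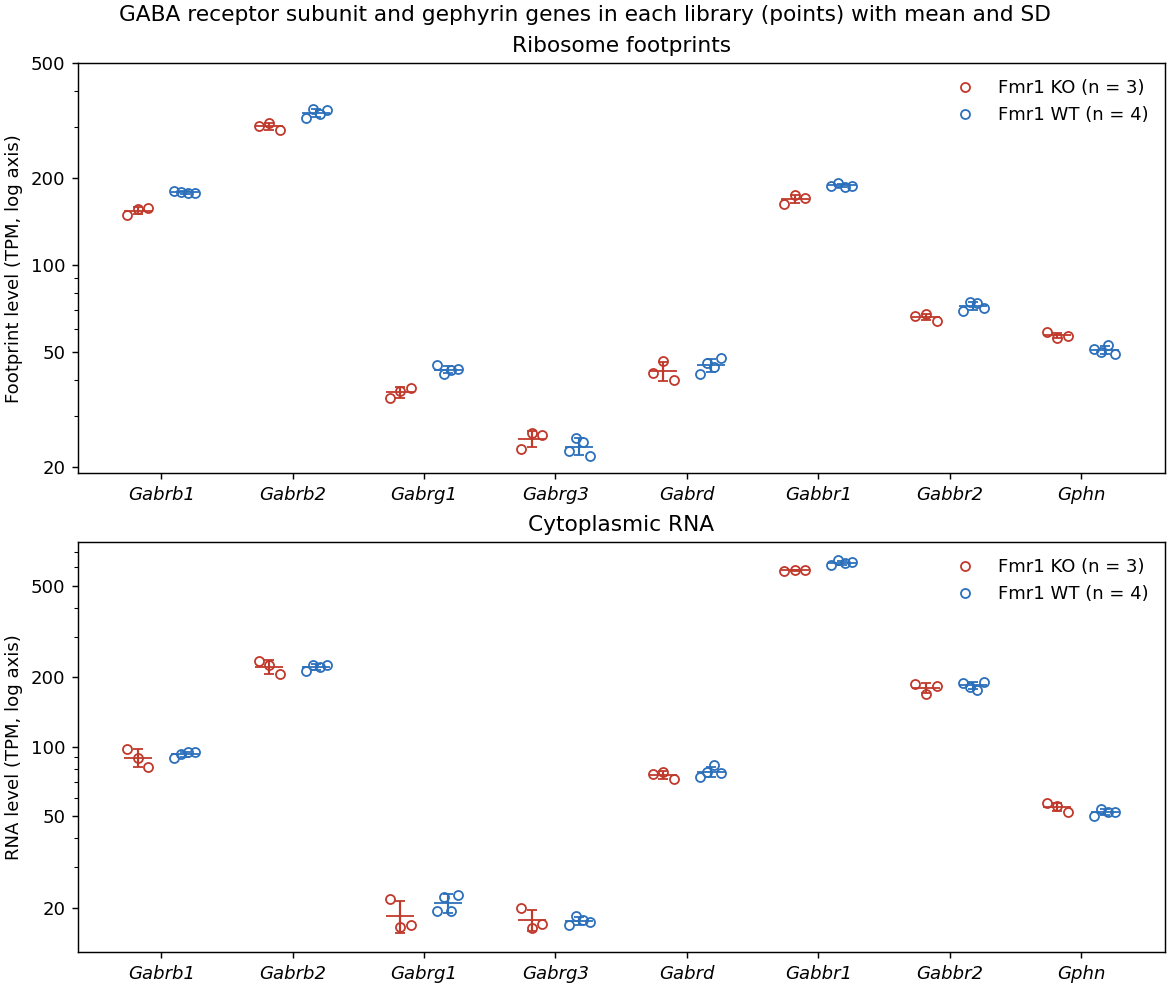
Level of each gene in every library, in TPM on a log axis, for footprints (top) and cytoplasmic RNA (bottom). Open points are libraries, with Fmr1 KO (n = 3) left of WT (n = 4), horizontal lines are means and bars are SD. In footprints the KO points of Gabrb1, Gabrb2, Gabrg1, Gabbr1 and Gabbr2 lie below all WT points and those of Gphn lie above them, while in RNA the groups are separate for Gabbr1 and overlap for the other 7 genes.

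The beta subunits, which form the GABA site with alpha subunits and carry the sites at which receptors are phosphorylated and held at the surface, both fell in footprints. Gabrb1 (chromosome 5, 71657921 to 72149572) had 149, 156 and 158 TPM in the KO libraries, against 181, 179, 177 and 177 TPM in the WT libraries. All 3 KO libraries were below all 4 WT libraries, and the WT libraries differed by no more than a few TPM. Its means were 154 ± 4.77 TPM in KO and 178 ± 1.55 TPM in WT, and its log2 fold change was -0.22 with an SE of 0.04 (adjusted p = 0.0029). Gabrb2 (chromosome 11, 42419515 to 42632591), the most abundant GABA-A subunit of the 5 followed here, had 303, 311 and 294 TPM in KO libraries and 324, 346, 333 and 344 TPM in WT libraries. The groups again did not overlap. Its means were 303 ± 8.7 TPM in KO and 337 ± 10.2 TPM in WT, a log2 fold change of -0.16 ± 0.04 (adjusted p = 0.0134), and the call rested on the third KO library in that without it the adjusted p was 0.0543.

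Of the 3 gamma and delta subunits 1 passed the test. Gabrg1 (chromosome 5, 70751047 to 70842617), a gamma subunit of restricted distribution, had 34.5, 36.6 and 37.5 TPM in KO footprints and 44.9, 41.8, 43.2 and 43.6 TPM in WT footprints. Every KO library was below every WT library. The means were 36.2 ± 1.52 TPM in KO and 43.4 ± 1.25 TPM in WT, and its log2 fold change of -0.27 ± 0.04 (adjusted p = 0.00247) was the largest of the 8 genes; 3.87% of all genes tested had a lower one. Gabrg3 (chromosome 7, 56716463 to 57387215), the gamma subunit with the lowest level here, had 23.1, 26.1 and 25.7 TPM in KO and 22.6, 25.2, 24.4 and 21.8 TPM in WT. Its groups overlapped, and the log2 fold change was 0.08 ± 0.06 (adjusted p = 0.481). Gabrd (chromosome 4, 155384979 to 155398098), the extrasynaptic delta subunit, had 42.2, 46.4 and 40.1 TPM in KO and 42.0, 45.7, 44.4 and 47.5 TPM in WT. Here too the groups overlapped, with a log2 fold change of -0.07 ± 0.06 (adjusted p = 0.432), so a fall of the size seen for Gabrb2 lies within about 2 SE of the estimate.

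Both subunits of the GABA-B heterodimer fell in footprints. Gabbr1 (chromosome 17, 37045966 to 37074305), the GABA-binding subunit, had 163, 175 and 170 TPM in KO libraries and 188, 192, 186 and 188 TPM in WT libraries. The highest KO library was below the lowest WT library. The means were 169 ± 6.15 TPM in KO and 189 ± 2.27 TPM in WT, a log2 fold change of -0.16 ± 0.04 (adjusted p = 0.0128). Its isoforms, which differ in where neurons place them, are summed in these gene-level values. Gabbr2 (chromosome 4, 46662318 to 46991714), the subunit that couples to the G protein, had 66.4, 67.5 and 64.2 TPM in KO and 69.3, 74.6, 73.6 and 70.9 TPM in WT. The groups did not overlap, but the gap between them was the narrowest of the 6 genes called. Its log2 fold change was -0.13 ± 0.04 (adjusted p = 0.0287), and the call was lost in 7 of 14 alternatives, with adjusted p up to 0.0988 without the third KO library.

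Gephyrin footprints rose. Gphn (chromosome 12, 78217325 to 78684772) had 58.4, 56.0 and 56.6 TPM in KO libraries and 51.0, 49.9, 53.0 and 49.3 TPM in WT libraries. All KO libraries were above all WT libraries. The means were 57.0 ± 1.29 TPM in KO and 50.8 ± 1.62 TPM in WT, a log2 fold change of 0.16 ± 0.03 (adjusted p = 0.00852), and 90.5% of all genes tested had a lower one.

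Counted together, 5 of the 8 genes were lower and 1 was higher in KO footprints, where 10.4% of all 14438 genes tested were lower and 8.15% higher (18.5% in either direction). The median log2 fold change of the 8 was -0.15, against -0.0001 over all genes. The same 6 genes were those whose groups did not overlap, 5 with every KO library below every WT library, which held for 15.6% of all genes, and 1 with every KO library above, which held for 15.1%. All changes are relative to other genes in the same library, and in bulk tissue fewer cells of a type and less RNA per cell cannot be told apart.

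**Figure D2:**
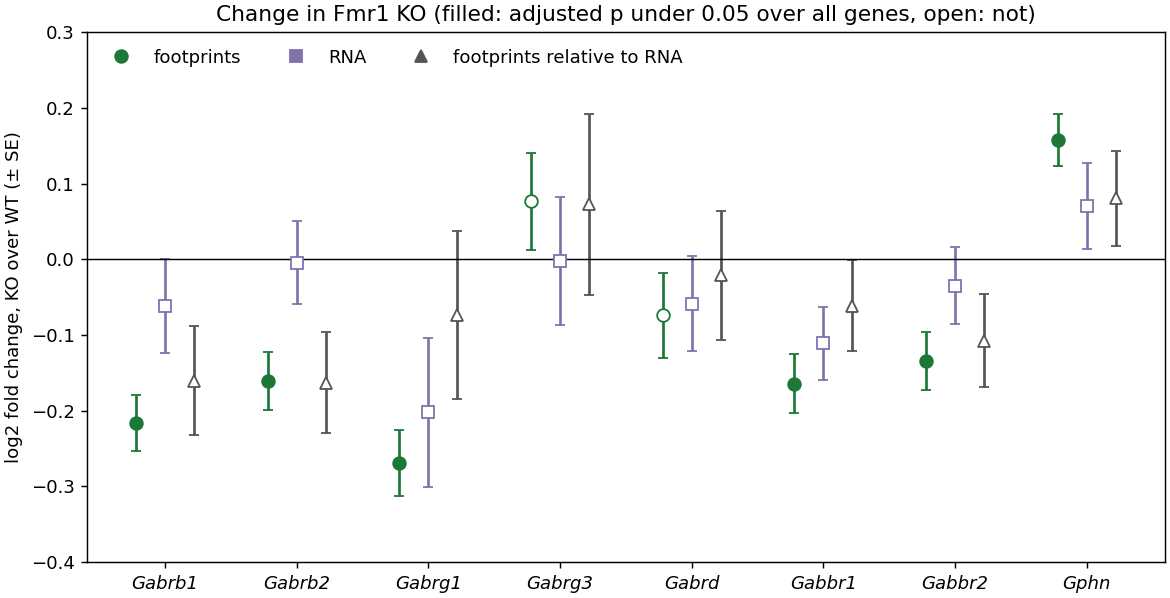
Log2 fold change of each gene, KO over WT, with its SE, for footprints (circles), RNA (squares) and footprints relative to RNA (triangles). Filled symbols have an adjusted p under 0.05 over all genes tested. The footprint circles of Gabrb1, Gabrb2, Gabrg1, Gabbr1, Gabbr2 and Gphn are filled, and every square and triangle is open.

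In cytoplasmic RNA, none of the 8 genes passed the edgeR test (0 of 8, where 4.89% of all 13877 genes tested were called, 2.11% higher and 2.77% lower). The smallest unadjusted p of the 8 by edgeR was that of Gabbr1. DESeq2, which called 6.65% of all genes it tested, and limma, which called 2.66%, also called none of the members, but DESeq2 gave an adjusted p for only 7 of them, all but Gabrg3. Gabbr1 RNA was 581, 582 and 586 TPM in KO libraries and 612, 644, 627 and 632 TPM in WT libraries. It was the 1 gene of the 8 whose RNA groups did not overlap, and 10% of all genes had every KO library below every WT library in RNA. Its log2 fold change in RNA was -0.11 ± 0.05 (unadjusted p = 0.0344, adjusted p = 0.198). Gabrg1 RNA was 21.8, 16.6 and 16.9 TPM in KO and 19.3, 22.4, 19.4 and 22.8 TPM in WT. One KO library stood with the WT libraries and the other two were below them all, and the log2 fold change of -0.20 ± 0.10 had an adjusted p of 0.264.

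Gabrb1 RNA was 97.8, 89.3 and 82.1 TPM in KO and 89.6, 92.6, 94.5 and 94.9 TPM in WT, so the KO libraries lay on both sides of the WT libraries. Its log2 fold change was -0.06 ± 0.06 (adjusted p = 0.64). Gabrb2 RNA was 235, 226 and 206 TPM in KO and 214, 227, 221 and 226 TPM in WT, with equal means of 222 ± 15.0 TPM in KO and 222 ± 6.07 TPM in WT. For this gene the footprint groups were separate while the RNA groups overlapped fully. Gphn RNA was 56.8, 55.2 and 52.3 TPM in KO and 49.9, 53.7, 52.2 and 52.1 TPM in WT. Its RNA difference had the sign of its footprint difference, with a log2 fold change of 0.07 ± 0.06 (adjusted p = 0.547).

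Gabbr2 RNA averaged 180 ± 9.1 TPM in KO and 185 ± 6.61 TPM in WT. Gabrd RNA averaged 75.4 ± 2.94 TPM in KO and 78.1 ± 3.98 TPM in WT, and Gabrg3 RNA 17.7 ± 1.86 TPM in KO and 17.6 ± 0.731 TPM in WT. In all of these the groups overlapped, and adjusted p-values were 0.672 to 0.993. RNA counts of Gabrg3 and Gabrg1 were lower than their footprint counts. Gabrg3 had 88 to 182 RNA counts per library and 506 to 724 footprint counts. Gabrg1 had 101 to 180 RNA counts and 800 to 1275 footprint counts. Those of Gabbr1 overlapped, at 6746 to 13187 RNA counts and 7650 to 11621 footprint counts. The SE of Gabrg1 was 0.10 in RNA and 0.04 in footprints, so a difference in RNA as large as that in footprints could have missed the threshold.

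Whether footprints changed by more than RNA was tested in one model over all 14 libraries, by the term in which genotype and assay interact (translational efficiency). None of the 8 genes passed (0 of 8 by edgeR, with 0.0346% of all 14435 genes called). DESeq2, which called 0.976% of all genes, and limma, which called 0.0138%, also called 0 members. By edgeR, the beta subunits had the smallest unadjusted p-values of the 8. Gabrb1 had a log2 change of -0.16 ± 0.07 in footprints relative to RNA (unadjusted p = 0.036, adjusted p = 0.411). Gabrb2 had -0.16 ± 0.07 (unadjusted p = 0.0243, adjusted p = 0.359). For Gabbr2 the value was -0.11 ± 0.06 (adjusted p = 0.557), for Gphn 0.08 ± 0.06 (adjusted p = 0.716) and for Gabbr1 -0.06 ± 0.06 (adjusted p = 0.803). Gabrg1, with the largest footprint difference, had -0.07 ± 0.11 (adjusted p = 0.903), since its RNA estimate lay on the same side.

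The level of footprints per RNA differed widely between the genes, in both genotypes alike. Taken as footprint TPM over RNA TPM of the same replicate, Gabrg1 had 1.58, 2.2 and 2.21 in KO and 2.32, 1.87, 2.23 and 1.91 in WT, and Gabrb1 had 1.52, 1.75 and 1.93 in KO and 2.02, 1.93, 1.88 and 1.87 in WT. Both stood close to the 90th percentile of all genes, whose WT ratios had a median of 0.785 and reached 1.9 at that percentile. Gabrb2 had 1.29, 1.38 and 1.43 in KO and 1.52, 1.52, 1.51 and 1.52 in WT. It was the 1 gene of the 8 whose ratios did not overlap between genotypes, and 7.01% of all genes had every KO ratio below every WT ratio. These ratios match libraries by replicate number. With group means removed, same-numbered footprint and RNA libraries correlated at -0.054 to 0.198 in KO and 0.00603 to 0.114 in WT. Gabrg3 averaged 1.42 ± 0.229 in KO and 1.33 ± 0.0566 in WT.

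At the other end, the GABA-B subunits carried few footprints per RNA. Gabbr1 averaged 0.29 ± 0.0102 in KO and 0.30 ± 0.00463 in WT, and 8.82% of all genes had a lower WT ratio. Gabbr2 averaged 0.367 ± 0.0264 in KO and 0.391 ± 0.0257 in WT, with 15.8% of genes lower. Gabrd stood between, at 0.568 ± 0.0222 in KO and 0.576 ± 0.0366 in WT, and Gphn above the median, at 1.04 ± 0.0358 in KO and 0.979 ± 0.0473 in WT. The 5 GABA-A genes had a length term, the factor that turns counts into TPM, of 0.958 to 1.01 times that of the median gene, whereas those of Gabbr1, Gabbr2 and Gphn were 2.1, 2.05 and 1.67 times it. The same length term served both assays and cancels from the ratio, and the coding share of each transcript does not enter it. The part of that share in the order of the genes was not tested.

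**Figure D3:**
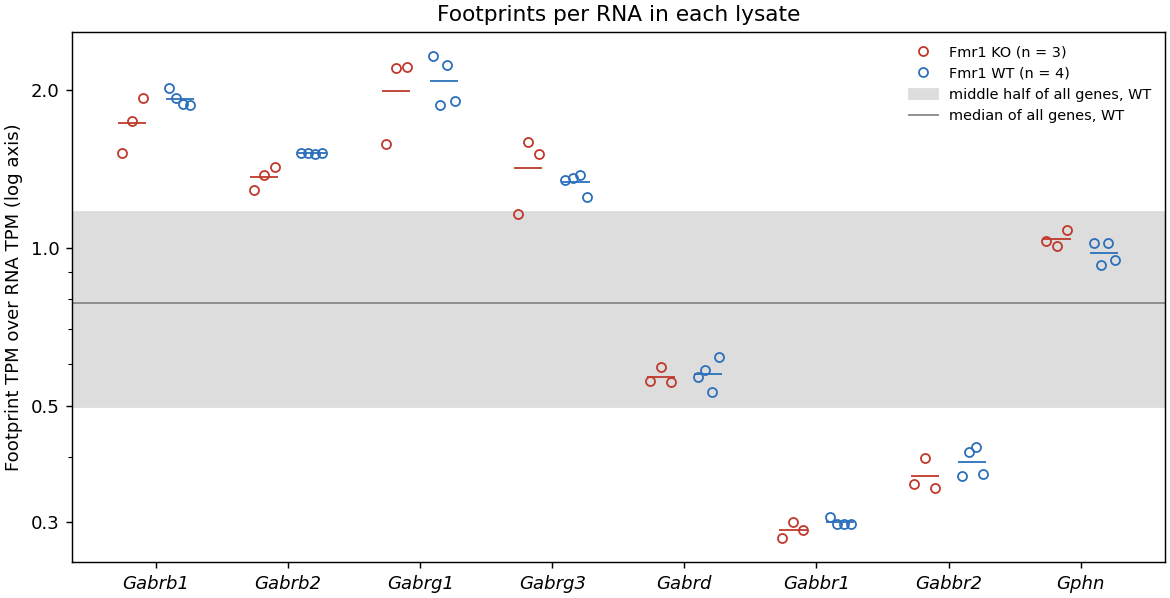
Footprint TPM over RNA TPM of the same replicate, on a log axis, for each gene, with Fmr1 KO (n = 3) left of WT (n = 4) and lines at the group means. The grey band spans the WT ratios of all genes from the lower to the upper quartile, 0.497 to 1.17, and the grey line is their median, 0.785. Gabrb1, Gabrb2, Gabrg1 and, but for 1 KO library, Gabrg3 lie above the band, Gabbr1 and Gabbr2 below it.

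Ordered by footprint level in WT, the genes ran from Gabrb2 through Gabbr1, Gabrb1, Gabbr2, Gphn, Gabrd and Gabrg1 to Gabrg3. Gabrd and Gabrg1 overlapped in WT, at 42.0 to 47.5 TPM and 41.8 to 44.9 TPM, and no other neighbours in that order did. The KO order was the same, and there Gabrd, at 40.1 to 46.4 TPM, was above Gabrg1, at 34.5 to 37.5 TPM, in every library. By RNA level the WT order was Gabbr1, Gabrb2, Gabbr2, Gabrb1, Gabrd, Gphn, Gabrg1 and Gabrg3. Gabbr1 RNA was higher than that of 98.3% of all genes in WT, while its footprints were higher than those of 92.6%. In KO the order by RNA level was the same, with Gabrg1 at 16.6 to 21.8 TPM and Gabrg3 at 16.4 to 19.9 TPM overlapping.

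Since the receptors are assembled from several subunits, the ratios of partners were compared. Gabbr1 over Gabbr2 was 2.56 ± 0.102 in KO and 2.62 ± 0.0795 in WT in footprints, a log2 difference of -0.031 (exact two-sided permutation test, p = 0.457). In RNA it was 3.24 ± 0.165 in KO and 3.41 ± 0.157 in WT, a log2 difference of -0.075 (exact p = 0.229). Gabrb1 over Gabrb2 was 0.51 ± 0.0239 in KO and 0.531 ± 0.0198 in WT in footprints (exact permutation p = 0.286) and 0.404 ± 0.0113 in KO and 0.419 ± 0.00773 in WT in RNA (exact permutation p = 0.114). With 35 ways of splitting 7 libraries the smallest p possible was 0.0571, so these tests could not have passed 0.05. The ranges of KO and WT overlapped in all 4 comparisons.

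Set against the sum of the 5 GABA-A subunits, a comparison chosen after the values were seen and given with no test, Gphn footprints were 10.2 ± 0.446% of the sum in KO (9.71 to 10.6%) and 8.11 ± 0.359% in WT (7.78 to 8.52%). The sum itself was 552 to 577 TPM in KO and 614 to 637 TPM in WT. In RNA the share was 13.0 ± 0.351% in KO (12.6 to 13.3%) and 12.1 ± 0.171% in WT (11.9 to 12.3%), while the summed RNA of the 5 subunits overlapped between genotypes, at 394 to 450 TPM in KO and 413 to 438 TPM in WT.

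The chromosome 5 cluster holds, in order, Gabrg1, Gabra2, Gabra4 and Gabrb1, and all of them were lower in KO footprints. Gabra2 (70958392 to 71095849), an alpha subunit of many forebrain synapses, lies between Gabrg1 and Gabra4 and differed most, with 299 ± 10.5 TPM in KO and 460 ± 8.53 TPM in WT (log2 fold change -0.63 ± 0.04, adjusted p = 1.4e-05). Its RNA fell as much, by 0.61 ± 0.06 on the log2 scale (SE, adjusted p = 4.39e-05). Gabra4 (71569734 to 71658308) averaged 70.3 ± 2.35 TPM in KO footprints and 80.6 ± 3.05 TPM in WT footprints (log2 fold change -0.20 ± 0.04, adjusted p = 0.00535), with an RNA log2 fold change of -0.02. Gabra4 is on the minus strand and Gabrb1 on the plus strand, and they overlap over 388 bases (71657921 to 71658308). Whether counting used strand is not given in the sources used here, so reads in that stretch could have been given to either gene. Nor is it stated whether KO and WT mice carried the same C57BL/6 substrain over this cluster, so a difference in local background and the loss of Fmr1 were not told apart for Gabrg1, Gabra2, Gabra4 and Gabrb1. Gabrg3 lies beside Gabra5 on chromosome 7; Gabra5 footprints averaged 90.5 ± 2.26 TPM in KO and 103 ± 1.94 TPM in WT (log2 fold change -0.20 ± 0.04, adjusted p = 0.00398), whereas those of Gabrg3 did not pass.

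For each of the 6 genes called, the genes with the most similar course over the 14 libraries were found among 10341 genes with at least 5 TPM in both assays, by Pearson correlation of log2 TPM centred within each assay. These libraries share the genotype split and their lysates, so a high r partly restates a shared genotype difference, and no p is given. Among the genes most like Gabrb2 was the neighbour of Gabrb1, Gabra4 (r = 0.913). Gabrb1 was closest to B4galt6 (r = 0.95), a galactosyltransferase of glycolipid synthesis, and Edil3 (r = 0.94), a secreted integrin ligand. Gabrg1 was closest to Neto1 (r = 0.936), an auxiliary protein of glutamate receptors, and Hapln1 (r = 0.924), a link protein of the extracellular matrix.

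Gabbr1 was closest to Sirpa (r = 0.969), a membrane receptor for CD47, and Gpr37l1 (r = 0.966), a receptor of astrocytes. Gpr37l1 footprints were lower in KO (log2 fold change -0.26 ± 0.06, adjusted p = 0.00725). Gabbr2 was closest to Igf1r (r = 0.943), the insulin-like growth factor receptor, and Mgat3 (r = 0.938), a glycosyltransferase. Gphn was closest to Prmt8 (r = 0.935), a brain arginine methyltransferase, and Thoc5 (r = 0.933), part of the complex that packages mRNA for export. Both rose in KO footprints, Prmt8 with a log2 fold change of 0.23 ± 0.04 (adjusted p = 0.00196) and Thoc5 of 0.22 ± 0.05 (adjusted p = 0.0112).

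The genes that work with the 8 were counted in 6 lists, to be read against the 18.5% of all genes called in footprints and the 4.89% called in RNA. All 5 alpha subunits measured were lower in KO footprints, and 2 of them, Gabra2 and Gabra3, in RNA. Gabra3 footprints averaged 64.8 ± 1.36 TPM in KO and 77.6 ± 3.21 TPM in WT (log2 fold change -0.27 ± 0.05, adjusted p = 0.00285). Among 23 scaffold and adhesion genes of inhibitory synapses, 11 were lower and 2 higher in footprints, and 4 were lower and 1 higher of 22 tested in RNA. Igsf9b, an adhesion protein of inhibitory synapses, had the smallest p, with KO libraries averaging 4.68 ± 0.157 TPM and WT libraries 6.64 ± 0.153 TPM (log2 fold change -0.51 ± 0.05, adjusted p = 0.000178). Slitrk3, an adhesion protein that drives inhibitory presynaptic differentiation, had a log2 fold change of -0.27 ± 0.04 (adjusted p = 0.000933). Cdh13, a cadherin found at inhibitory synapses, had -0.23 ± 0.04 (adjusted p = 0.00196) and Glra3, an alpha subunit of glycine receptors, -0.41 ± 0.06 (adjusted p = 0.00108). The median of that list was -0.17 in footprints, close to that of the 8 genes.

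Of 20 auxiliary and effector genes of the GABA-B receptor 2 were higher and 1 lower in footprints, a share close to that of all genes, and 0 of 19 passed in RNA. The G-protein beta subunits Gnb1 and Gnb2, through which GABA-B receptors open potassium channels, were the 2 that rose. Gnb1 had 620 ± 10.8 TPM in KO and 492 ± 14.3 TPM in WT (log2 fold change 0.32 ± 0.04, adjusted p = 0.00058), and Gnb2 had 331 ± 9.89 TPM in KO and 273 ± 9.4 TPM in WT (0.27 ± 0.03, adjusted p = 0.000828). Ajap1, a transmembrane protein that binds the GABA-B receptor, was the 1 that fell, with a log2 fold change of -0.34 ± 0.06 (adjusted p = 0.00359). Rgs6, which speeds the end of G-protein signals, had 0.21 ± 0.07 (adjusted p = 0.0631) and did not pass.

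Of 22 genes of receptor assembly and traffic 3 were lower and 1 higher in footprints, again a share close to that of all genes, and 1 was higher in RNA. Those lower were Hap1, Trak1 and Trak2, adaptors that link cargo to kinesin motors, with log2 fold changes of -0.22 ± 0.04, -0.23 ± 0.04 and -0.22 ± 0.05 (adjusted p = 0.00384, 0.00392 and 0.00842). Trak2 was also 1 of the 5 genes called in footprints relative to RNA, with a log2 change of -0.42 ± 0.08 (adjusted p = 0.0443), and its RNA had a log2 fold change of 0.19 ± 0.06 (adjusted p = 0.0799). Nsf, the ATPase that takes apart fusion complexes, was the higher one in both assays, with a log2 fold change of 0.15 ± 0.04 for footprints (adjusted p = 0.0344) and 0.24 ± 0.06 for RNA (adjusted p = 0.0238). Of 11 genes of GABA synthesis, release, uptake and breakdown, 2 were higher and 1 lower in footprints and 0 passed in RNA. Abat, which breaks down GABA, had a log2 fold change of 0.15 ± 0.03 (adjusted p = 0.00651), Glul, glutamine synthetase, 0.15 ± 0.03 (adjusted p = 0.00832) and Slc38a1, a glutamine transporter, -0.16 ± 0.04 (adjusted p = 0.0111). Slc32a1, the vesicular GABA transporter, had -0.13 ± 0.04 (adjusted p = 0.0512) and did not pass. Of 7 genes of the molybdenum cofactor pathway, the other role of gephyrin, 0 passed in footprints or RNA. Mocs3, which activates a sulphur carrier of that pathway, had the smallest footprint p, with a log2 fold change of 0.19 ± 0.07 (adjusted p = 0.0751). Suox, the sulphite oxidase that uses the cofactor, had 0.08 ± 0.06 (adjusted p = 0.507) and Mocs1, of the first step, 0.11 ± 0.08 (adjusted p = 0.541). Xdh, a purine oxidase that uses the cofactor, had -0.095 ± 0.06 (adjusted p = 0.676). Its footprints averaged 1.13 TPM in KO and 1.2 TPM in WT, close to the lowest values of the footprint libraries (0.93 to 1.0 TPM). Little can therefore be read from its log2 fold change.

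**Figure D4:**
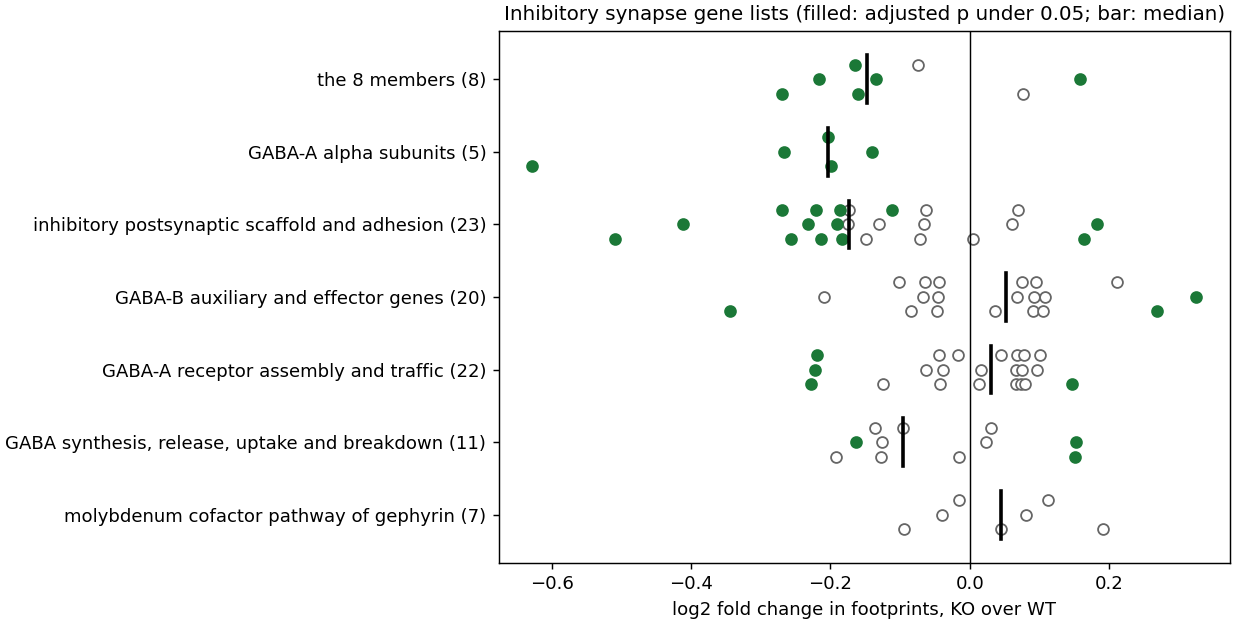
Log2 fold change in footprints, KO over WT, of every gene tested in the 8 genes of interest and in 6 lists of related genes, with the number tested in brackets. Each point is a gene, filled where the adjusted p over all genes is under 0.05, and the black bar is the median of the list. All 5 alpha subunits and 11 of 23 scaffold and adhesion genes are filled left of 0, while the lists of GABA-B partners, traffic, GABA metabolism and the molybdenum cofactor spread around 0.

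Markers of the cells that the slices could hold were counted in the same way, against the same 18.5% of all genes in footprints and 4.89% in RNA. Of 14 interneuron markers 7 were lower and 1 higher in KO footprints, with sums of 3996.2 to 4338.1 TPM in KO and 4224.9 to 4547.9 TPM in WT. In RNA 1 of them was lower, with sums of 2613.0 to 2813.6 TPM in KO and 2838.4 to 3174.7 TPM in WT. Of 10 microglia markers 9 were lower in footprints, with sums of 542 to 580 TPM in KO and 649 to 678 TPM in WT, and 7 were lower in RNA. Of 7 meningeal fibroblast markers 5 were lower in footprints, with sums of 237 to 246 TPM in KO and 301 to 338 TPM in WT, and 2 in RNA. Of 10 thalamus markers 5 were higher in footprints, with sums of 197 to 211 TPM in KO and 164 to 200 TPM in WT, and 5 in RNA. Of 8 oligodendrocyte precursor markers 3 were lower in footprints, with sums of 343 to 365 TPM in KO and 364 to 395 TPM in WT, and 3 in RNA, with sums of 308 to 341 TPM in KO and 349 to 401 TPM in WT. Of 9 oligodendrocyte markers 5 were lower and 1 higher in footprints, and 1 was higher in RNA. Of 8 endothelial markers 3 were lower in footprints and 0 passed in RNA. Of 11 astrocyte markers 2 were higher and 2 lower in footprints, and 0 passed in RNA. Of the markers of principal cells, 3 of 7 for CA3 were lower, 2 of 7 for CA1 were lower and 1 higher, and 2 of 12 for dentate granule cells were lower and 1 higher in footprints, while in RNA 1, 1 and 2 of them were lower. No marker was at 0. The part of these cell types in the differences of the receptor genes was not tested.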

How the data were processed

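Footprints and cytoplasmic RNA were compared between 3 Fmr1 KO and 4 WT libraries per assay. Per the submitters' processing notes, the tools were cutadapt 1.7.1, Trimmomatic 0.32, Bowtie2 2.1.0, TopHat2 2.0.9, SAMtools 0.0.19, bedtools and RSEM 1.2.11, with build mm10. The authors deposited RSEM estimated counts (expected counts) and TPM for 14459 genes. How reads matching related subunits were divided, and whether strand was used, is not given in the sources used here. None of the count values equalled a whole number exactly (0%), so they were rounded.

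Counts were tested with edgeR 4.0.16 in R 4.3.3 (filterByExpr with minimum count 10, TMM, robust quasi-likelihood test, Benjamini-Hochberg over all genes, adjusted p under 0.05), each assay alone. The SE was taken as the size of the log2 fold change divided by the root of its F statistic. Footprints relative to RNA were tested by the genotype-by-assay interaction. Adjusted p-values with no tool named are edgeR's. Alternatives were DESeq2 1.42.0, limma 3.58.1 on log2(TPM + 1), other scalings, no filter, a replicate or lysate block, a replicate-set covariate, a length trend and each library left out. Exact permutation tests used SciPy 1.17.1. Scripts were tested on simulated data. Replicates are separate pools of slices. The sequences are RefSeq's.

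The members, lists and tests were chosen with earlier results of these data known. All members, Fmr1, up to 4 genes with the smallest footprint p per list and the 2 genes closest to each called member were named. The CA3 markers Nnat, Cpne4 and Elavl2 were named outside this rule. A list of further GABA-A subunits and a gene that the rule covers are not reported here.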

Additional observations from a re-analysis of the deposited data

Results flagged for a closer look

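Among 24 groups of 4 WT values examined for a library far from the others, 1 was singled out (chance gives about 1 in 20 groups). It concerned the footprints over RNA of Gabbr1. The ratio was 0.28, 0.30 and 0.29 in the KO replicates, and 0.307 in WT replicate 1 against 0.298, 0.298 and 0.297 in the other WT replicates.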

How the results depend on the processing

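Over 14 alternatives each, footprints of Gabrb1, Gabrg1 and Gabbr1 kept their direction and their call. Gphn lost its call with the replicate block (adjusted p = 0.0626), Gabrb2 without the third KO library (0.0543), and Gabbr2 with the block, with the length trend removed and without any of 5 single libraries (up to 0.0988). Members lower in footprints numbered 3 to 5 and members higher 1 when single libraries were left out; with the replicate block 4 were lower and 0 higher. The numbers do not pair the genotypes: same-numbered libraries correlated at -0.466 to 0.0393 in footprints and -0.339 to -0.0551 in RNA, after group means were removed.

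Over all genes, footprint calls were 1177 higher and 1500 lower, against 425 and 871 with the replicate block, and 719 to 1086 and 1051 to 1303 without single libraries. RNA calls were 293 higher and 385 lower, against 161 and 223 by limma, 96 and 126 with the block, 160 and 192 with the replicate-set covariate, and 94 to 352 and 122 to 520 without single libraries. Calls of footprints relative to RNA were 2 higher and 3 lower, against 51 and 38 by DESeq2, 0 and 2 by limma, 0 and 0 with the block, 14 and 7 with the length trend removed, and 1 to 57 and 1 to 11 without single lysates. No member was called in RNA or in footprints relative to RNA under any of these.

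Some log2 fold changes close to 0 turned sign. In RNA, Gabrb2 was 0.0012 with RLE scaling, 0.00056 without the filter, 0.0011 by DESeq2, 0.0086 with the block and -0.031 to 0.051 without single libraries. Gabrg3 RNA was 0.0025 with RLE scaling, 0.0022 without the filter, 0.0074 by limma, 1.9e-05 with the covariate and -0.060 to 0.039 without single libraries. Without single libraries Gabrb1 RNA ran between -0.11 and 0.0034 and Gabbr2 RNA between -0.051 and 0.0050. In footprints relative to RNA, leaving out single lysates gave -0.17 to 0.079 for Gabrg1, -4.8e-05 to 0.20 for Gabrg3 and -0.074 to 0.023 for Gabrd, which was 0.019 with the block. The subunit ratios moved by less than the spread between replicates. The cause of these changes was not tested. RNA libraries held fewer counts than footprint libraries, and the part of depth was not tested. Among fits without single libraries, RNA calls were most numerous, at 352 higher and 520 lower, without KO replicate 3, the deepest RNA library. Calls of footprints relative to RNA numbered 57 and 11 without KO lysate 3. The fewest RNA calls higher came without WT replicate 4 (94) and the fewest lower without KO replicate 2 (122).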
